A study of Mus musculus with 9 samples.

Results

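The comparison described here is ortho IL-2 against no IL-2 in mouse regulatory T cells (Tregs) that carry an orthogonal IL-2 receptor. Its members were chosen by treatment label: the 3 libraries of cells given ortho IL-2 and the 3 libraries of cells given no IL-2, 6 of the 9 RNA-seq libraries of the study. The other 3 libraries, of cells given wild-type (WT) IL-2, also entered the choice of transcripts, the filter on low values, the scaling and the model, where they help to estimate the spread. They were compared with ortho IL-2 directly at the end. By its title, the study concerns an orthogonal IL-2 and receptor pair as a means to expand Tregs selectively and to promote tolerance of transplants.

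All 9 libraries, the no IL-2 controls included, came from BALB/c mouse spleen Tregs that express green fluorescent protein with Foxp3 (Foxp3GFP+) and had received, by transduction, the orthogonal form of the IL-2 receptor beta chain joined to a human EGFR (hEGFR) tag. Per the treatment label, they were stimulated for 48 hours with beads against CD3 and CD28 in 1000 IU/mL hIL-2 (human IL-2), were isolated magnetically by the tag, and rested overnight with no IL-2. For the last 4 hours they received nothing (no IL-2), 20000 IU/mL WT IL-2 or 2000000 IU/mL ortho IL-2. The controls are therefore previously activated, IL-2-fed and then IL-2-deprived cells, not freshly isolated Tregs. The growth label describes a different assay, a co-culture, and was not used. The sources used here give no ages of the mice, and the labels do not say whether a group's 3 libraries stem from different animals or cultures, so the p-values reflect library-to-library spread that may be technical.

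IL-2 is the cytokine on which Tregs depend for survival and growth. It binds a receptor of an alpha chain (CD25, gene Il2ra), a beta chain (Il2rb) and the common gamma chain (Il2rg). JAK1 and JAK3 on the receptor then phosphorylate STAT5, which enters the nucleus and binds short palindromic DNA sites, while PI3K-AKT and RAS-ERK signalling run in parallel and AKT drives FOXO factors out of the nucleus. An orthogonal cytokine is one engineered to bind a matching mutant receptor chain in place of the natural one.

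The libraries held 16581624 to 58182835 reads in genes, and 10702 genes were tested. Over the 9 libraries, 78.5% of the variance of the most variable genes lay on principal component 1, and the no IL-2 libraries lay apart from the ortho IL-2 libraries there (-28.6, -25.6 and -22.1 against 8.35, 15.1 and 21.1). The biological coefficient of variation was 5.31% among the no IL-2 libraries and 10.3% among the ortho IL-2 libraries. The deposited RPKM values divide by a library total larger than the sum of the reads over the transcripts kept here, 1 for each gene. The share of that total not in these transcripts, here called reads outside genes, was 43.3%, 38.9% and 39.3% without IL-2 and 33.0%, 29.5% and 25.7% with ortho IL-2. The difference of -11.1 percentage points had an exact permutation p of 0.1 (two-sided), the smallest that 3 libraries against 3 allow. The part of this difference in the gene results below was not tested beyond a fit that holds the share as a covariate, whose effect is given for many of the lists and for the genes named by rule and printed here whose call it removes. Because the groups did not overlap in the share, that fit separates the treatment from the share poorly.

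The cells had the profile of Tregs. In the no IL-2 libraries, Foxp3, the transcription factor that defines the lineage, reached 513, 529 and 529 CPM (reads scaled to a common library size, with TMM factors), and Cd4 648, 673 and 645 CPM. Few markers of other cells passed the filter on low values: 3 of 14 for B cells, 1 of 24 for myeloid cells, 3 of 17 for CD8 T cells and NK cells, 2 of 22 for erythroid cells, platelets and stroma and 2 of 11 for the output of conventional helper T cells. The summed level was 16.9 to 18.3 CPM without IL-2 and 14.9 to 16.6 CPM with ortho IL-2 for the B cell list, 15.9 to 17.6 against 11.2 to 12.03 CPM for the myeloid list, and 15.6 to 17.4 against 13.8 to 14.8 CPM for the helper list. The CD8 T and NK cell list went from 22.5 to 23.5 CPM to 30.9 to 33.8 CPM. Prf1 and Gzma, which activated Tregs also express, were called higher. Mean Cd8a, which did not pass the filter, went from 1.42 to 3.02 CPM, and mean Cd8b1 from 6.74 to 7.72 CPM. Cd8b1 was not called under TMM but was called higher under the RPKM divisor (log2 change 0.44, edgeR adjusted p = 0.018). Eomes and Klrd1, also below the filter, went down, from 5.16 to 4.56 CPM and from 1.03 to 0.451 CPM. Whether the content of CD8 T cells changed was not tested. The macrophage genes C1qa, C1qb and Marco, the NK receptor gene Klra8, and Gp9, Lum and Hbb-bt had no read in the 6 libraries. Epcam rose 4.94-fold, from 3.41, 2.86 and 2.02 CPM to 14.3, 13.9 and 13.8 CPM, and Pecam1 fell 1.29-fold, a fall that was not called under the RPKM divisor (edgeR adjusted p = 0.341). Here and below, in bulk RNA, a change in the share of cells that express a gene and a change in its RNA per cell cannot be told apart.

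After 4 hours of ortho IL-2, 3054 genes were higher and 2936 lower than without IL-2 (edgeR quasi-likelihood test, Benjamini-Hochberg adjusted p under the threshold of 0.05), which is 56% of the genes tested. The called genes are 28.5% of all genes for rises and 27.4% for falls, and counts of list members are read against these shares. For 66.1% of genes the levels of the 2 groups were fully separate, all ortho IL-2 libraries lying above for 33.9% and below for 32.2%. Called differences were mostly small, with 630 higher and 546 lower genes between 1.5-fold and 2-fold and most of the rest below that. Changes of at least 2-fold were fewer and, among the genes that passed the filter on low values, tilted upward, with 410 genes higher (3.83%) and 261 lower (2.44%). That tilt depends on the filter: with no filter on low values it was reversed, with 671 genes higher and 934 lower by at least 2-fold. The count of 261 fell to 150 without no IL-2 replicate 1 and to 152 without ortho IL-2 replicate 3. Among the genes that passed the filter, the upward tilt was larger above 4-fold. There 59 genes rose and 8 fell by 4 to 8-fold, and 25 rose and 0 fell by more than 8-fold. The higher genes took 20.5% ± 0.233 of all reads in genes without IL-2 and 30.1% ± 0.813 with ortho IL-2, and the lower genes 40% ± 0.316 and 30.1% ± 0.850 (SD, n = 3).

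**Figure D1:**
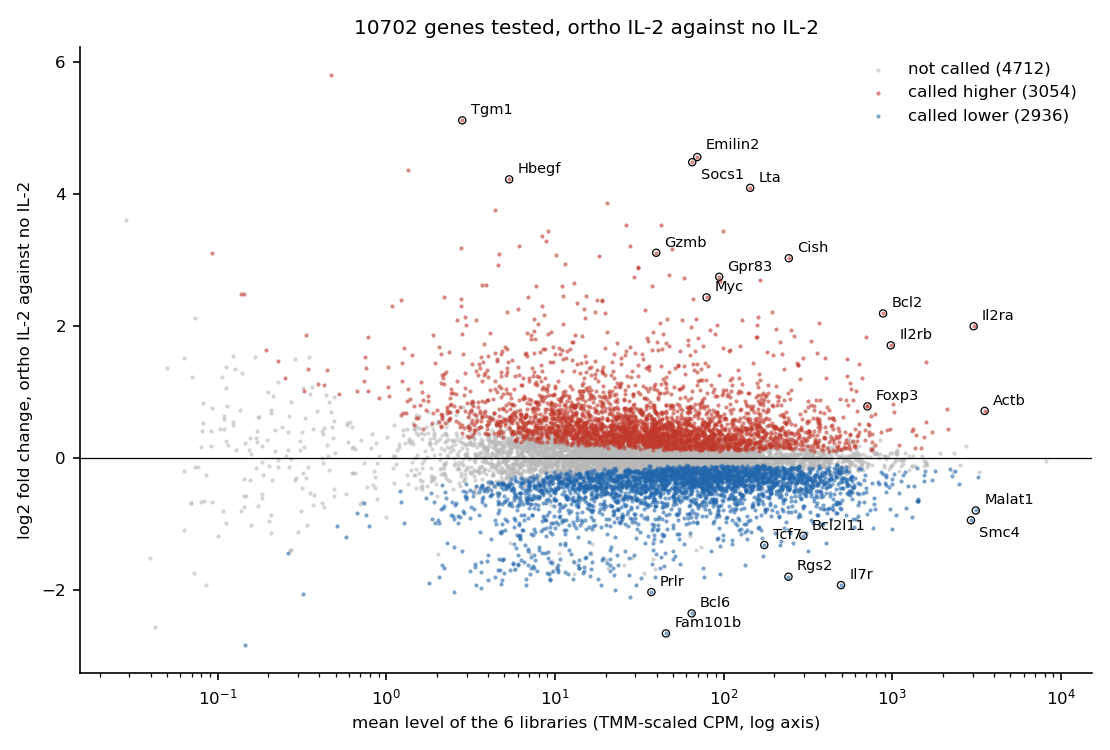
Fold change of ortho IL-2 against no IL-2 (y axis, log2) for the 10702 genes tested, by mean level of the 6 libraries (x axis, TMM-scaled CPM on a log axis). Red points were called higher (3054), blue points lower (2936), and grey points were not called, and rises reach further from 0 than falls.

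Both directions are relative to the median gene, which moved by 0.01 on the log2 scale under TMM. When reads were instead scaled by the whole number that the deposited RPKM values divide by, which includes the reads outside genes, the median gene moved by 0.29 and 85.8% of called genes were higher, against 51.0% under TMM. Higher genes also differed from lower genes in sequence makeup, with a median transcript GC content of 53.3% against 46.3% and a median length of 2492 against 3402 bases. With offsets for GC content, 3210 genes were higher and 3223 lower, but these were not all the same genes. Of the 3054 rises 2442 kept their call and direction, and of the 2936 falls 2444 did. Changes below are under TMM, and a list whose median changes sign under the RPKM divisor is given with both values.

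The receptor genes moved in both directions. Il2ra (chr2:11642792-11693194, GRCm38) stood at 1206, 1224 and 1220 CPM without IL-2 and 5040, 4890 and 4605 CPM with ortho IL-2. Il2rb, whose reads could include those of the transduced chain, stood at 437.9, 467 and 474 CPM against 1554, 1362 and 1578 CPM. Every ortho IL-2 library was above every control for both genes, a rise of 3.98-fold for Il2ra (edgeR adjusted p = 3.09e-09) and 3.26-fold for Il2rb (edgeR adjusted p = 3.89e-07). Il2ra had the largest gain in CPM of the genes tested, from 1217 ± 9.73 to 4845 ± 221 CPM (SD, n = 3). Il7r, the alpha chain of the IL-7 receptor and a FOXO1 target, went the other way, from 791, 794 and 771 CPM to 200, 222 and 198 CPM, 3.81-fold lower (edgeR adjusted p = 1.63e-07). Il4ra rose 1.37-fold and Il15ra 1.26-fold, while Il2rg was called 1.13-fold lower under TMM but 0.11 higher on the log2 scale, uncalled, under the RPKM divisor, and it was not called with the covariate (edgeR adjusted p = 0.0914). The call of Il4ra was lost with the covariate for reads outside genes (edgeR adjusted p = 0.352). Il21r was not called (log2 difference 0.11 ± 0.06, SE), and Il9r did not pass the filter.

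Among receptors for other cytokines, 5 of 21 tested rose and 10 fell, with a median of -0.13 under TMM and 0.14 under the RPKM divisor. Prlr, the prolactin receptor, which also signals to STAT5, fell from 61.6, 58.7 and 59.4 CPM to 17.7, 13.2 and 12.9 CPM, 4.10-fold. Il6ra fell 1.85-fold, from 199 to 204 CPM without IL-2 to 103 to 112 CPM with it. Il12rb1, a shared chain of the IL-12 and IL-23 receptors, rose 2.38-fold, from 12.2, 12.3 and 13.6 CPM to 29.2, 27.6 and 33.3 CPM.

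The SOCS family, which shuts off JAK signalling and is itself induced by STATs, had 5 of 8 members higher and 1 lower (median log2 change 0.98). Cish rose 8.14-fold, from 51.3, 52.8 and 56.0 CPM to 430, 379 and 491 CPM (edgeR adjusted p = 5.59e-08). Socs1 rose 22.3-fold, from 4.45, 5.22 and 7.71 CPM to 121, 98.8 and 153 CPM (edgeR adjusted p = 7.57e-07). Socs3 rose 4.30-fold and Socs2 2.84-fold, and Socs2 was already at 205 to 214 CPM without IL-2. For these 4 genes every ortho IL-2 library was above every control, as was so for 33.9% of all genes tested. The fall was in Socs5, 1.33-fold.

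The JAK and STAT genes did not follow: 3 of 11 rose and 5 fell, none by 2-fold. Stat5b, one of the STAT5 genes, fell 1.54-fold, from 693, 702 and 693 CPM to 444, 437.7 and 470 CPM. Jak1 fell 1.58-fold and Jak2 1.79-fold, whereas Jak3, the kinase bound to the common gamma chain, rose 1.53-fold. Stat5a was 1.27-fold lower under TMM, a call lost under the RPKM divisor (log2 change -0.06, edgeR adjusted p = 0.656) and with the covariate (edgeR adjusted p = 0.0815). Of the phosphatases and other proteins that restrain JAK and STAT, 4 of 10 rose and 2 fell: Ptpn1 rose 1.64-fold and Ptpn6, which encodes SHP-1, 1.37-fold. The 3 PIM kinase genes, textbook STAT5 targets that promote survival, were called higher, Pim2 by 2.10-fold, Pim1 by 1.85-fold from 406, 414 and 420 to 756, 723 and 809 CPM, and Pim3 by 1.34-fold. The call of Pim3 was lost without ortho IL-2 replicate 1 or 3, without any 1 of the no IL-2 libraries and without WT IL-2 replicate 3. It was also lost with GC offsets (log2 change 0.05, edgeR adjusted p = 0.567), with the covariate (0.22, edgeR adjusted p = 0.723), with the replicate block (edgeR adjusted p = 0.0597) and with quantile normalization (limma adjusted p = 0.0664).

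The promoters of some of these genes hold the palindrome that STAT5 binds. Windows of 300 bases, from 250 bases before the annotated start to 50 after it, were available in RefSeq (GRCm38.p6) for 8424 of the genes tested and were searched for TTCNNNGAA, which reads the same on both strands. It was found in 7.09% of all these windows, in 13.1% of the windows of genes called at least 2-fold higher (41 of 314) and in 6.84% of those at least 2-fold lower (13 of 190). Over all genes called higher the share was 7.84% (193 of 2463), near the 7.04% of genes not called, and over all genes called lower it was 6.37%. Among 22 higher genes of the panel (32 genes of the IL-2 response and of Treg identity) or of the 15 largest rises, 9 had a match, and Cish, Lta and Tgm1 had 2 each. Their windows are shown because they are the strongest rises with repeated sites, in lower case on the strand of the gene with the matches in capitals. A match describes the letters and is not evidence of binding.
Cish, chr9:107296409-107296708, plus strand: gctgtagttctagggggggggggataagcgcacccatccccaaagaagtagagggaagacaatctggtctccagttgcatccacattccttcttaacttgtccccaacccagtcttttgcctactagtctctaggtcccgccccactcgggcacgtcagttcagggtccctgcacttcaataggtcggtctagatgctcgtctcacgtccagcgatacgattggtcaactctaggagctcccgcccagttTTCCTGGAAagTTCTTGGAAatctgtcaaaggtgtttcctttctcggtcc
Lta, chr17:35205302-35205601, minus strand: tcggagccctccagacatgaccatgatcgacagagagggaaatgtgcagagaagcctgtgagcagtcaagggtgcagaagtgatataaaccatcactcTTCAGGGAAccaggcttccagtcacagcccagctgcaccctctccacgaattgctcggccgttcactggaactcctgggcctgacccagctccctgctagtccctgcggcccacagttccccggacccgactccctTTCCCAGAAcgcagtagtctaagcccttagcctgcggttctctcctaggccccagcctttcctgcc
Tgm1, chr14:55713443-55713742, minus strand: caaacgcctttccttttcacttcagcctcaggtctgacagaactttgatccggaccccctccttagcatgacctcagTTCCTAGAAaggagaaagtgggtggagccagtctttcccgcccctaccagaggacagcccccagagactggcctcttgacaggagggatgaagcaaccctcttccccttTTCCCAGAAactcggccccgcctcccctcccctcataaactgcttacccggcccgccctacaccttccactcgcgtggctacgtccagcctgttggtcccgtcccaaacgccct
Counted from 0 at the annotated start, the matches begin at 0 and 11 in Cish, at -152 and -16 in Lta, and at -173 and -64 in Tgm1.

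**Figure D2:**
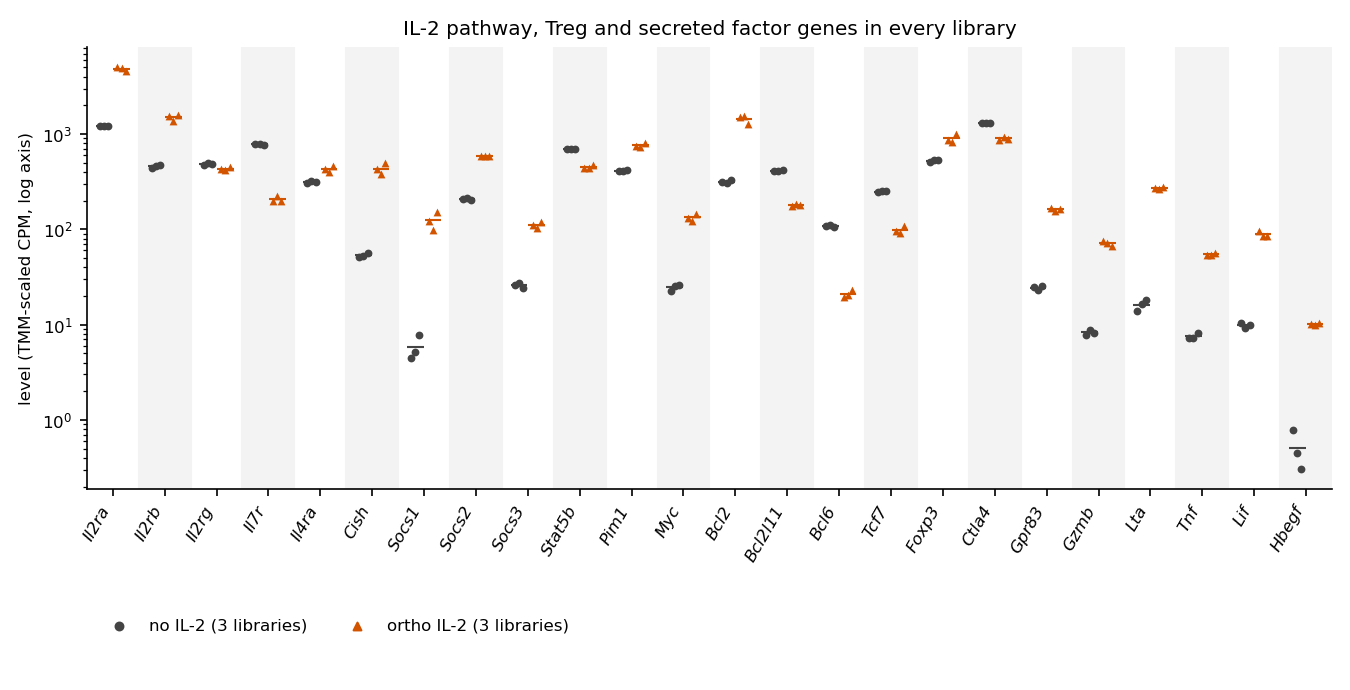
Level of 24 IL-2 pathway, Treg and secreted factor genes in each library (y axis, TMM-scaled CPM on a log axis), with circles for no IL-2, triangles for ortho IL-2 and lines at the group means. Levels run from Hbegf under 1 CPM without IL-2 to Il2ra at 4605 to 5040 CPM with ortho IL-2. The groups do not overlap for any gene shown, as was so for 66.1% of all genes tested. The 24 genes are a selection, and Prdm1 and Klf2, whose groups overlap, are not shown.

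Genes of the PI3K arm moved in both directions. Of 23 pathway genes 9 rose and 6 fell, Pik3r5, a regulatory subunit of PI3K gamma, by 2.16-fold upward and Mlst8, a subunit of the mTOR complexes, by 1.92-fold upward. Of 20 inhibitors tested, 8 rose and 5 fell, and those that fell by at least 2-fold were Sesn1 (2.39-fold, from 307, 308 and 312 CPM to 128, 133 and 127 CPM), Pik3ip1 (2.08-fold) and Phlpp1 (2.00-fold). Sesn1 and Pik3ip1 are also FOXO targets.

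The FOXO list, of FOXO factors and their textbook targets, fell as a group: 20 of 25 tested members were lower and 1 higher, with a median log2 change of -0.68 under TMM and -0.40 under the RPKM divisor, and 16 were still lower with the covariate. Bcl6, a transcriptional repressor that opposes STAT5 at many sites, had the second largest fall named, from 110, 110 and 105 CPM to 19.5, 20.5 and 23.1 CPM, 5.12-fold lower (edgeR adjusted p = 8.13e-09). Tcf7, which encodes the T cell memory factor TCF1, fell 2.50-fold, from 245, 252 and 250 CPM to 96.9, 91.8 and 109 CPM. Bcl2l11, which encodes the proapoptotic protein BIM, fell 2.27-fold, from 405, 408 and 420 CPM to 177, 185 and 182 CPM. Ccr7, a receptor for entry to lymph nodes, fell 2.10-fold, and S1pr1, a receptor for exit from them, 1.59-fold. The single rise was Foxo3 (log2 change 0.32), while Foxo1, chosen after its value was seen, fell 1.79-fold. Klf2, a FOXO1 target, was not called under TMM, with 165, 171 and 165 CPM without IL-2 and 181, 168 and 227 CPM with it (log2 difference 0.21). It was called higher under the RPKM divisor (0.49, edgeR adjusted p = 0.0112) and lower with GC offsets (-0.15, edgeR adjusted p = 0.00885), so its direction depends on the setting.

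The sequence GTAAACA, a FOXO site, was in 2.66% of all promoter windows on either strand, in 4.21% of the windows of genes at least 2-fold lower (8 of 190) and in 2.23% of those at least 2-fold higher (7 of 314). Of 13 lower genes of the panel or of the 15 largest falls with a window, Tcf7 and Bcl2l11 held it, at 1 and -227 from the start, and both windows are shown with it in capitals.
Tcf7, chr11:52282546-52282845, minus strand: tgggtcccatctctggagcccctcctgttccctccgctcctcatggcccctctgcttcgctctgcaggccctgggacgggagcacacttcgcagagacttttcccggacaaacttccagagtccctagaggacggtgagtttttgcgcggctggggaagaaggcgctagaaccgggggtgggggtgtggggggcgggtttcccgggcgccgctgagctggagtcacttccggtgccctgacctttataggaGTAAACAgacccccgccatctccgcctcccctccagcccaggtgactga
Bcl2l11, chr2:128125788-128126087, plus strand: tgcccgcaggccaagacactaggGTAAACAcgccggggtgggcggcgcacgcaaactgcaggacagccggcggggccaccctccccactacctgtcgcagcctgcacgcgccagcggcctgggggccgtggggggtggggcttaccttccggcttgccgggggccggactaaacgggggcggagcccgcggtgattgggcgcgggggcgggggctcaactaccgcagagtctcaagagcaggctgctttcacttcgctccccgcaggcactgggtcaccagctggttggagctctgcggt
The E-box CACGTG that MYC binds was in 10.6% of all windows, in 12.4% for genes at least 2-fold higher and in 7.37% for genes at least 2-fold lower.

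Feedback inhibitors of ERK and other MAP kinases rose in 10 of 14 cases and fell in 1. Spred1 went from 7.32, 7.59 and 8.01 CPM to 54.0, 57.7 and 42.2 CPM, 6.72-fold, and Dusp6, the phosphatase specific for ERK, from 5.60, 6.35 and 4.95 CPM to 30.6, 28.7 and 30.0 CPM, 5.24-fold. The fall was in Dusp10, which acts on p38 and JNK rather than ERK: 65.0, 67.6 and 69.2 CPM became 21.9, 19.9 and 22.9 CPM, 3.11-fold lower. Immediate early genes rose in 11 of 18 cases and fell in 3, with Fos 3.16-fold higher, Jund 2.27-fold higher and Nr4a2, a gene induced by the T cell receptor and named after its value was seen, 2.12-fold lower. Jund lost its call with the covariate (edgeR adjusted p = 0.105).

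Genes of the T cell receptor pathway leaned downward, 13 of 25 lower and 6 higher, with a median of -0.14 under TMM and 0.14 under the RPKM divisor. Rasgrp1, the exchange factor that links the receptor to RAS, was the exception by size: it rose 2.35-fold, from 312, 322 and 326 CPM to 773, 759 and 726 CPM. Ptpn22, an inhibitor of proximal signalling, fell 1.71-fold. Among anergy genes, 2 of 14 rose and 6 fell (median -0.06, and 0.21 under the RPKM divisor), including Cblb, an E3 ligase that restrains receptor signalling, which fell 1.905-fold from 564, 559 and 573 to 287, 308 and 296 CPM. Of NF-kappaB genes, 4 of 21 rose and 8 fell (median -0.10, and 0.18 under the RPKM divisor). Nfkbiz rose 2.38-fold, and Tnfaip3, which encodes the inhibitor A20, fell 1.91-fold, from 768, 775 and 741 to 385, 389 and 424 CPM.

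The Treg signature split, with 16 of 32 tested genes higher, 11 lower and 5 not called. The members that rose most were Gzmb, Gpr83 and Il2ra. Gzmb (granzyme B) went from 7.86, 8.76 and 8.19 CPM to 75.2, 71.4 and 67.4 CPM, 8.62-fold, and Gpr83, an orphan receptor abundant in Tregs, from 24.9, 23.2 and 25.3 CPM to 169, 157 and 165 CPM, 6.70-fold (edgeR adjusted p = 2.79e-09 and 1.81e-09). Foxp3 itself rose 1.72-fold, from 513, 529 and 529 CPM to 871, 816 and 1009 CPM (edgeR adjusted p = 0.000452), with no overlap between groups, but was not called with the covariate (log2 change 0.55, edgeR adjusted p = 0.168). Tnfrsf18 (GITR) rose 2.30-fold and Tnfrsf4 (OX40) 2.53-fold. Several core Treg genes fell: Ctla4, through which Tregs strip costimulatory ligands from other cells, 1.44-fold from 1301, 1298 and 1297 to 870, 937 and 894 CPM, Itgae (CD103) 1.77-fold, and Epas1 (HIF-2 alpha) 3.34-fold. Ikzf2 (Helios) was called 1.28-fold lower, a call lost under the RPKM divisor (edgeR adjusted p = 0.381) and with the covariate (edgeR adjusted p = 0.772). Nrp1 (1.91-fold lower), Lrrc32 (1.71-fold higher) and Ikzf4 (1.81-fold higher) were named after their values were seen.

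Of the lineage and memory transcription factors, 13 of 39 rose and 19 fell, with a median of -0.01 under TMM and 0.26 under the RPKM divisor. Myb, which supports effector Tregs and proliferating progenitors, was the largest rise, 4.24-fold, from 50.3, 48.5 and 48.6 CPM to 211, 208 and 206 CPM. The 4 falls of at least 2-fold were Bcl6, Tcf7, Hhex (3.05-fold, from 6.01, 4.28 and 4.89 to 1.86, 1.62 and 1.51 CPM) and Ahr, the aryl hydrocarbon receptor, named after its value was seen (log2 change -1.10). Irf8 (2.69-fold higher) was likewise named after its value was seen. Prdm1, which encodes the effector factor BLIMP-1 and is repressed by BCL6 in other T cells, was not called under TMM: it had 37.0, 36.7 and 37.1 CPM without IL-2 and 38.7, 37.8 and 34.8 CPM with ortho IL-2, a log2 difference of 0.01 ± 0.05 (SE). Under the RPKM divisor it was called higher (0.28, edgeR adjusted p = 0.00808), where the median gene moved by 0.29.

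TNF superfamily ligands included large rises, with 7 of 11 higher and 1 lower (median log2 change 0.66). Lta, which encodes lymphotoxin alpha, went from 13.8, 16.3 and 18.04 CPM to 269, 268 and 276 CPM, 17.04-fold (edgeR adjusted p = 2.79e-09). Its neighbour in the genome Tnf went from 7.22, 7.25 and 8.07 CPM to 53.4, 54.3 and 56.4 CPM, 7.32-fold. Tnfsf14 (LIGHT) rose 4.39-fold from about 1 CPM, and Cd40lg fell 1.54-fold, a fall not called with the covariate (edgeR adjusted p = 0.0965). In the receptor family, 7 of 15 rose and 4 fell. Tnfrsf9 (4-1BB), from 297, 314 and 308 CPM to 1108, 1067 and 1093 CPM, and Tnfrsf8 (CD30), from 0.776, 1.13 and 1.16 CPM to 4.50, 4.08 and 4.17 CPM, rose 3.56-fold and 4.24-fold.

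Of 35 listed secreted cytokine and growth factor genes, 15 were expressed enough to be tested, and 10 of these rose while 2 fell. Hbegf, an EGF receptor ligand, had 0.776, 0.451 and 0.306 CPM without IL-2 and 10.1, 10.02 and 10.5 CPM with ortho IL-2, 18.6-fold more. Lif rose 8.94-fold, from 10.4, 9.17 and 10.03 CPM to 95.9, 84.9 and 84.1 CPM, and Osm, a related IL-6 family cytokine named after its value was seen, 6.62-fold. Prok1 rose 20.5-fold but rested on 4, 3 and 2 reads in the controls. Ifng rose 2.72-fold at a low level, from 1.11, 1.24 and 0.673 CPM to 3.46, 2.97 and 2.20 CPM. The falls were in Il10, 1.70-fold at under 3 CPM, and Il16. Granzyme and granule genes rose in 12 of 19 cases and fell in 3, with Prf1 (perforin) 2.57-fold and Gzma 2.37-fold higher, both below 10 CPM in every library. Of 16 chemokine genes only Ccl5 and Ccl9 were tested, and Ccl9 was called lower with overlapping libraries.

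Inhibitory and costimulatory receptors leaned downward, 11 of 22 lower and 6 higher, with a median of -0.21 under TMM and 0.07 under the RPKM divisor. Pdcd1, which encodes PD-1, fell 2.23-fold, from 73.0, 77.0 and 74.1 CPM to 32.4, 32.2 and 35.8 CPM. Cd28 fell 1.904-fold, from 798, 809 and 803 CPM to 418, 451 and 397 CPM, and Slamf6 1.61-fold, whereas Icos rose 1.32-fold. Chemokine receptor and homing genes fell in 11 of 23 cases and rose in 7 (median -0.17, and 0.11 under the RPKM divisor). S1pr3, a sphingosine 1-phosphate receptor, rose 13.4-fold from 0.641, 0.489 and 0.734 CPM to 8.601, 7.33 and 8.66 CPM, opposite to S1pr1, which fell 1.59-fold from 830, 843 and 814 to 523, 520 and 517 CPM. Integrin chains fell in 7 of 16 cases and rose in 5 (median -0.15, and 0.13 under the RPKM divisor), led by Itga4, 2.45-fold lower. In the G protein regulator list 10 of 20 rose and 6 fell. Rgs2 fell 3.49-fold, from 378, 381 and 370 CPM to 98.6, 109 and 117 CPM, while Rgs1 rose 2.29-fold, from 174, 170 and 173 CPM to 389, 431 and 368 CPM.

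The BCL2 family moved in few members but far in some. Bcl2, the antiapoptotic founder, went from 313, 305 and 333 CPM to 1508, 1541 and 1282 CPM, 4.56-fold higher (edgeR adjusted p = 2.84e-08). Bcl2l1, which encodes BCL-XL, rose 3.10-fold, from 17.1, 21.0 and 17 CPM to 57.4, 57.8 and 56.1 CPM. Mcl1 rose 1.43-fold, so 3 of 12 antiapoptotic genes were higher and 4 lower (median -0.20, and 0.08 under the RPKM divisor). Of 16 proapoptotic genes 5 rose and 3 fell, and Bcl2l11, above, was the only fall of at least 2-fold. Casp8 rose 1.98-fold. Of 22 p53 genes, 7 rose and 6 fell (median -0.06), against 12 and 3 under the RPKM divisor (median 0.22), with Plk3 3.05-fold higher and Gadd45a 2.02-fold lower. Trp53inp1, a stress gene also induced by p53, went from 1739, 1742 and 1641 CPM to 942, 1018 and 794 CPM, a fall not called with the covariate (edgeR adjusted p = 0.0819).

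Cell cycle genes were counted by phase, with no test between phases. Of 25 G1 genes 13 rose and 6 fell: Cdk6 rose 3.53-fold, Ccnd3 3.10-fold, and Ccnd2 2.81-fold from 278, 280 and 291 CPM to 817, 817 and 754 CPM. The CDK inhibitor gene Cdkn1b (p27), also on the FOXO list and named after its value was seen, fell 1.63-fold. Of 51 DNA replication genes only 8 rose and 8 fell, none by 2-fold, and with the covariate 0 rose and 2 fell. Under the RPKM divisor 27 replication genes were higher and 1 lower, and their median went from -0.03 to 0.25. Of 58 mitosis genes 29 fell and 7 rose, again none by 2-fold, and their median of -0.15 became 0.12 under the RPKM divisor, where 24 were higher and 0 lower. Of 18 condensin and cohesin genes 7 fell and 1 rose (median -0.16, and 0.11 under the RPKM divisor). Smc4, a condensin subunit, stood apart: it was among the most abundant messages, at 3883, 3859 and 3800 CPM, and fell 1.93-fold to 1963, 2187 and 1846 CPM. The direction of the replication, mitosis and cohesin groups as a whole thus depends on the scaling, while Smc4 was called lower under each of the alternatives run. In the BTG and TOB family Tob2 rose 2.72-fold, while Tob1 fell 1.88-fold and Btg2 1.87-fold. The call of Tob1 was lost with the covariate (edgeR adjusted p = 0.0632).

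Among growth genes, Myc and the nucleolar list rose. Myc, the master regulator of cell growth, went from 22.7, 25.7 and 26.0 CPM to 132, 124 and 144 CPM, 5.40-fold (edgeR adjusted p = 3.33e-08). Of 65 nucleolar genes of ribosome biogenesis, 54 were higher and 0 lower, 12 of them by at least 2-fold, with a median log2 change of 0.69, and 36 were still higher with the covariate. Bysl rose 3.74-fold, Rrp12 3.14-fold and Ppan 2.82-fold, each from under 10 CPM. The product of that pathway did not move alike at the message level under TMM: of 76 cytosolic ribosomal protein genes, 11 were higher and 1 lower, a smaller share than over all genes. Their median of 0.06 became -0.03 with quantile normalization, and none was called with the covariate. Under the RPKM divisor 65 were higher and 0 lower (median 0.34), where 5707 of the 10702 genes tested were higher. There 61 of the 65 nucleolar genes were higher (median 0.97), so the gap in counts depends on the scaling. Of 76 mitochondrial ribosomal protein genes 26 rose and 3 fell, and with the covariate 0 rose and 1 fell. RNA polymerase I and III subunits rose in 9 of 28 cases and fell in 2.

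Translation and protein folding genes were called higher more often than lower. Cytosolic aminoacyl-tRNA synthetases rose in 19 of 23 cases and fell in 1 (median 0.54), Mars by 2.50-fold and Iars by 2.15-fold, and 14 were called higher with the covariate. Translation factors rose in 20 of 46 cases and fell in 1, with Eif5a 2.64-fold higher, from 145, 151 and 158 to 408, 381 and 407 CPM. Nuclear transport genes rose in 25 of 43 cases and fell in 5, with Ipo4 3.36-fold higher, and 10 were higher and 1 lower with the covariate. TRiC and related chaperonin genes rose in 9 of 16 cases and fell in 0, and 2 were higher with the covariate. Proteasome subunits rose in 26 of 47 cases and fell in 3, and with the covariate 4 were higher and 0 lower. Psmb8, an immunoproteasome subunit, rose 1.85-fold. In the unfolded protein list 14 of 28 rose and 3 fell, Xbp1 3.88-fold from 80.9, 81.2 and 89.3 to 331, 315 and 329 CPM.

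**Figure D3:**
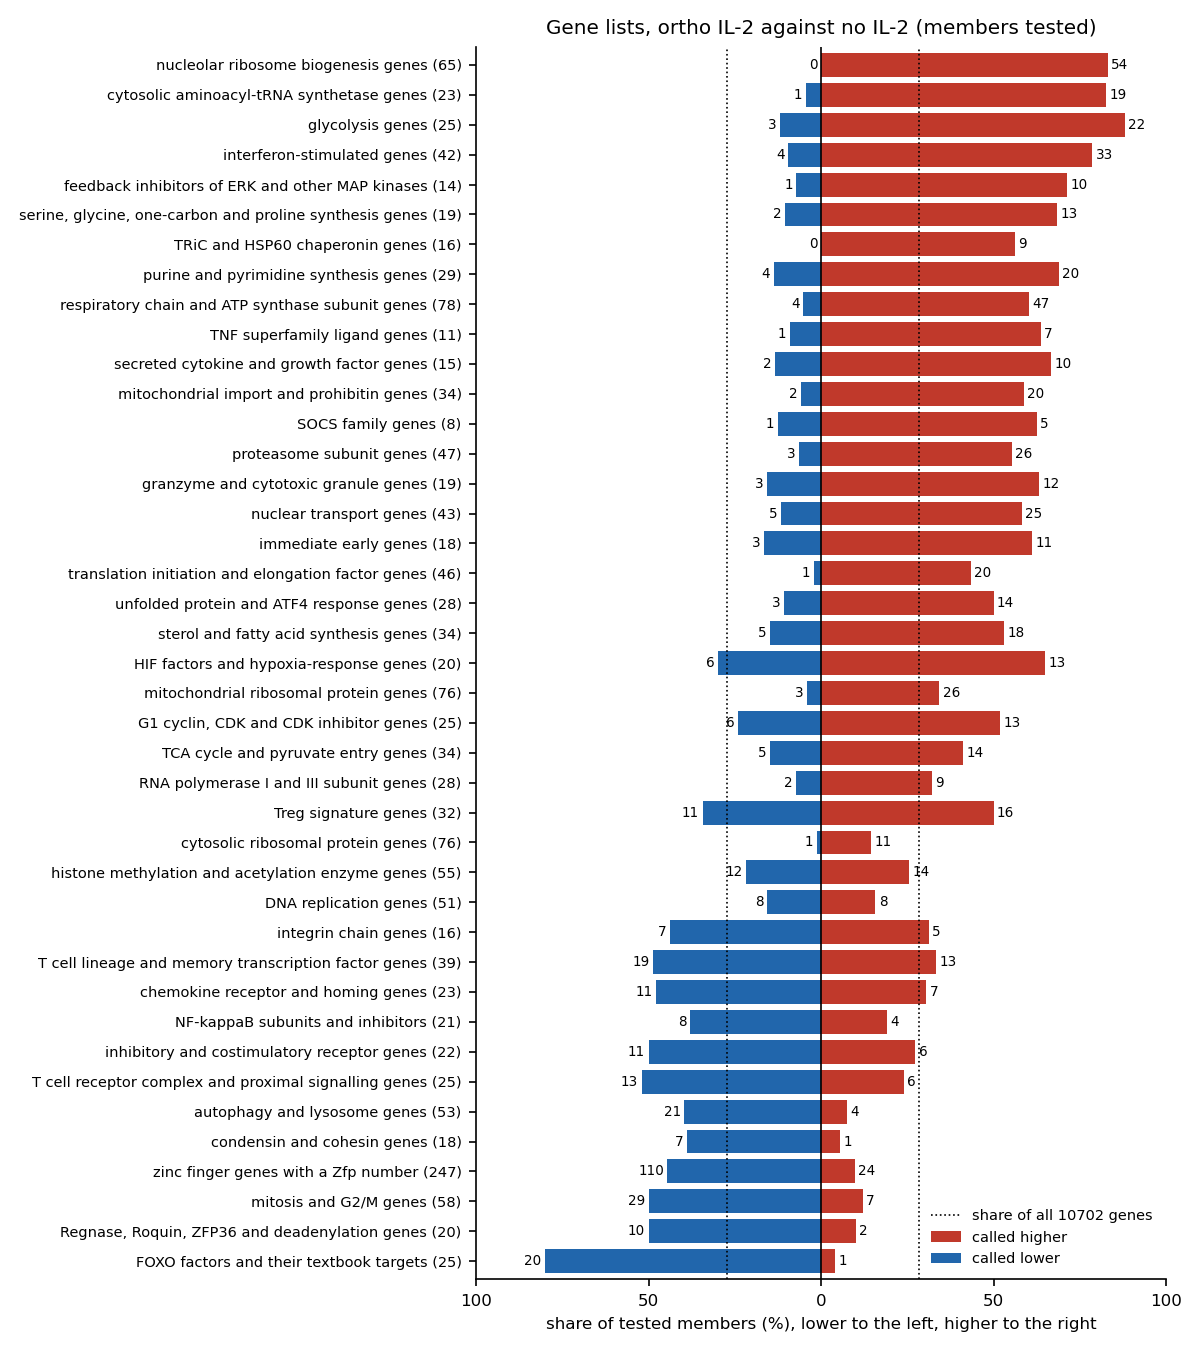
Share of the tested members of 41 gene lists called higher (red, to the right) or lower (blue, to the left) with ortho IL-2, with the number of genes at the end of each bar and the number tested in brackets. Dotted lines mark the shares over all 10702 genes (28.5% higher, 27.4% lower). Among the 41 lists shown, nucleolar, aminoacyl-tRNA synthetase and glycolysis genes lie furthest to the right and FOXO genes furthest to the left. The 41 are a selection from 75 lists, and small lists not shown lie further out, such as PIM kinases (3 of 3 higher) and Schlafen genes (7 of 8 lower).

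Among metabolic genes, of 25 glycolysis genes tested, 22 rose and 3 fell, all by less than 2-fold (median 0.35), and 8 were higher with the covariate. Pkm, which encodes the last enzyme of the pathway, rose 1.35-fold from 1870, 1815 and 1775 to 2549, 2436 and 2408 CPM. The falls were in Ldhb, Pfkfb1 and Pfkfb2. Respiratory chain and ATP synthase subunits rose in 47 of 78 cases and fell in 4, but with the covariate 1 was higher and 1 lower. In the TCA cycle list 14 of 34 rose and 5 fell: Pcx, pyruvate carboxylase, which refills the cycle, rose 5.29-fold, from 22.1, 18.9 and 22.0 CPM to 111, 103 and 119 CPM.

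Synthesis pathways held larger single changes. Serine, glycine, one-carbon and proline genes rose in 13 of 19 cases, 7 by at least 2-fold (median 0.76): Asns rose 3.63-fold, Shmt1 3.30-fold and Aldh18a1 3.08-fold. Gldc, the glycine decarboxylase and one of the 15 largest rises, went from 1.55, 1.47 and 1.47 CPM to 16.1, 14.3 and 15.6 CPM. Nucleotide synthesis genes rose in 20 of 29 cases and fell in 4, with Cad, the enzyme of the first steps of pyrimidine synthesis, 4.24-fold higher, from 20.8, 21.4 and 22.9 to 91.5, 81.3 and 102 CPM. Sterol and fatty acid genes rose in 18 of 34 cases and fell in 5, with Elovl6, a fatty acid elongase, 4.61-fold higher, from 67.3, 66.5 and 72.8 to 325, 329 and 297 CPM. Srm, which makes spermidine, rose 4.29-fold, the amino acid transporters Slc7a5 and Slc7a1 3.34-fold and 2.52-fold, and the transferrin receptor Tfrc 2.01-fold. Of 18 amino acid transporters tested, 7 were higher and 7 lower under TMM (median -0.06), and 8 and 2 under the RPKM divisor (median 0.22).

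Interferon-stimulated genes rose in 33 of 42 cases and fell in 4 (median 0.56), and with the covariate in 21 and 2. Isg20 rose 4.33-fold, Gbp5 3.60-fold from 117, 114 and 111 to 438.3, 428 and 365 CPM, and Igtp, a GTPase of cell-autonomous immunity, 3.01-fold from 165, 184 and 184 to 567, 568 and 468 CPM. Several classical members of the type I response, Ifit1, Mx1, Rsad2 and Oasl1 among them, did not pass the filter, and Ifit2 fell 1.72-fold. These genes were named after their values were seen, apart from Isg20, Gbp5 and Igtp.

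Autophagy and lysosome genes leaned down, 21 of 53 lower and 4 higher, with a median of -0.06 under TMM and 0.22 under the RPKM divisor. Ctsl, which encodes cathepsin L, fell 3.17-fold, from 117, 115 and 110 CPM to 34.6, 38.8 and 34.9 CPM. Zinc finger genes with a Zfp number were lower in 110 of 247 cases and higher in 24, with a median of -0.19 that became 0.09 under the RPKM divisor and with 5 higher and 7 lower with the covariate. Genes of mRNA decay fell in 10 of 20 cases and rose in 2 (median -0.15, and 0.13 under the RPKM divisor), among them Zfp36l2, 1.81-fold, and Zfp36l1, 1.61-fold. Schlafen genes were lower in 7 of 8 cases, Slfn3 most, by 0.32 on the log2 scale (median -0.20, and 0.07 under the RPKM divisor), and 0 of them were lower under that scaling or with the covariate.

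The largest rises, taken among genes with at least 5 CPM in the higher group, included proteins of the matrix and cytoskeleton as well as signalling genes. Tgm1, a transglutaminase that crosslinks proteins, rose 34.6-fold to 5.73, 5.57 and 5.08 CPM, from 2, 3 and 6 reads in the controls, so its fold is imprecise. Emilin2, an extracellular matrix glycoprotein, rose 23.6-fold on firmer counts, from 4.66, 5.60 and 7.22 CPM to 138, 129 and 134 CPM. Tgm2, the tissue transglutaminase, rose 11.5-fold, from 6.58, 6.24 and 7.77 to 80.4, 77.1 and 77.3 CPM. The dynein-related genes Drc1 and Dnah7a rose 14.5-fold and 10.8-fold, the latter from 15.8, 17.02 and 18.04 to 188, 180 and 178 CPM. Mcf2l, a guanine nucleotide exchange factor, rose 11.6-fold and Podxl, a sialomucin, 9.79-fold. By CPM gained, after Il2ra, the leading genes were Actb, Vim, Bcl2, Actg1, Il2rb, Tnfrsf9 and Pkm, in that order. Vim (vimentin) rose 2.74-fold, from 809, 873 and 848 CPM to 2286, 2183 and 2456 CPM, and Actb 1.64-fold. The genes that lost most CPM, beside Smc4, were Malat1, Trp53inp1, Camk4, Ets1, Ptprc, Fyb and 6820431F20Rik. Malat1, a nuclear noncoding RNA, varied 4016, 2977 and 4903 CPM among the controls and was not called with the covariate (edgeR adjusted p = 0.344), and the falls of Ets1 and Ptprc were not called under the RPKM divisor. With the covariate Ets1 (edgeR adjusted p = 0.0531), Ptprc (0.471) and 6820431F20Rik (0.0755) were not called either. Camk4, a calcium-dependent kinase of T cells, fell 2.12-fold from 1369, 1339 and 1362 to 640, 690 and 592 CPM.

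The 15 largest falls did not all keep their sign with the covariate. Fam101b, Bcl6, Prlr, Tdrp, Il7r and Gng4 were called lower with it and without it. Fam101b, a filamin-binding regulator of actin, stood at 76.7, 81.9 and 76.8 CPM without IL-2 and 11.9, 13.2 and 12.3 CPM with ortho IL-2, 6.32-fold lower (edgeR adjusted p = 3.60e-09). Prlr and Gng4 varied more within the ortho IL-2 group, Gng4 between 1.57 and 2.55 CPM. The other 9 varied within both groups: Tyms-ps had 62.8, 42.3 and 37.4 CPM without IL-2 and 23.5, 9.37 and 4.89 CPM with it, Slc18b1 39.0, 26.8 and 23.1 against 15.7, 4.78 and 3.09 CPM, and Ptk6 7.66, 5.90 and 3.67 against 2.82, 1.11 and 0.605 CPM. In each of these 9, replicate 1 was the highest library of its group, as it was for the share of reads outside genes, and with that share as a covariate the sign of all 9 changed, to 0.56 to 1.14 on the log2 scale, with none called. These were C230091D08Rik, Ptk6, Tmem82, Tyms-ps, Slc18b1, 1010001N08Rik, 2810011L19Rik, Fbxo43 and Efcab4a.

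**Figure D4:**
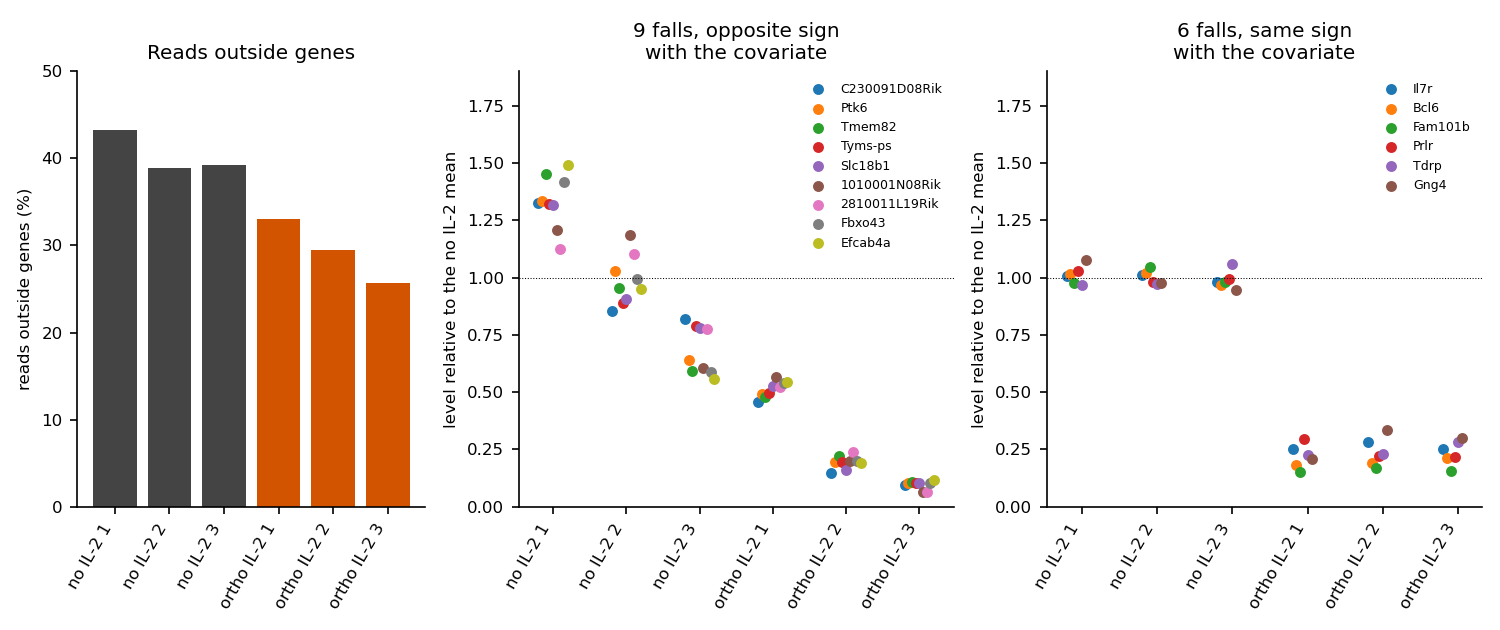
Left, reads outside genes per library (% of the total that the deposited RPKM values divide by, not in the transcripts kept). Middle and right, level of the 15 largest named falls in each library relative to their no IL-2 mean (y axis), for the 9 genes whose sign changed with the covariate and the 6 whose sign did not. In the 9 genes replicate 1 is the highest library of each group, as in the left panel. Every ortho IL-2 library lies below every no IL-2 library in all 15 genes, because the rule that chose them required it.

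This division extended over all falls of at least 2-fold. Of the 261 such genes, 109 were called lower also with the covariate, 30 were lower but not called, and 122 changed sign. The 122 genes had a median coefficient of variation of 35.6% among controls and 65.8% among ortho IL-2 libraries, against 3.68% and 7.17% for the 109 and 4.37% and 6.39% for all genes tested. Their median levels relative to each gene's own mean were 2.03, 1.39 and 0.981 without IL-2 and 0.890, 0.413 and 0.236 with ortho IL-2, so the lowest control and the highest ortho IL-2 library nearly met. The 2 sets were formed from the covariate fit, and these values describe them without a test. The rises of at least 2-fold did not divide so: 342 of 410 were called higher with the covariate, 68 were higher but not called, and 0 changed sign. Among genes cited elsewhere, Tyms, Mbd4, Psmb11, Zfp300, Zfp345 and Zfp941 were called lower and changed sign with the covariate, with Zfp345 then called higher (log2 change 1.57, edgeR adjusted p = 0.048). Psmb11, a proteasome subunit known from thymic cortical epithelium, had 45.0, 31.7 and 20.1 CPM against 18.7, 7.28 and 3.92 CPM.

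Among the 109 falls called also with the covariate, those with at least 5 CPM without IL-2 can be ranked by size; the following were named after their values were seen. St8sia6, a sialyltransferase, fell 3.38-fold, from 146, 144 and 150 CPM to 43.3, 41.5 and 45.2 CPM. Gramd3 fell from 255, 253 and 250 CPM to 88.1, 93.4 and 88.1 CPM, and Kctd12b from 83.9, 84.5 and 79.99 CPM to 28.1, 29.3 and 24.4 CPM. Lower-level genes of this kind were Bhlhe41, a circadian repressor, from 11.4, 11.05 and 10.4 CPM to 2.88, 3.48 and 3.40 CPM, and Ednrb, the endothelin B receptor, from 12.7, 10.7 and 12.3 CPM to 4.10, 3.94 and 2.98 CPM. The ranking took only genes with every ortho IL-2 library below every control, which was so for 32.2% of all genes tested. In these 5 genes the 3 libraries of a group lay close together relative to the difference between groups, which the 2 calls required of them also favour.

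No gene was called different between ortho IL-2 and WT IL-2 in the direct test, at doses that differed by 100-fold in IU/mL. The calls were 0 of 10702 by edgeR, a share of 0%, and 0 by DESeq2, with 149 and 114 genes at an unadjusted p under 0.05. The 2 comparisons against no IL-2 share their controls, so only values are set side by side: Il2ra reached 4845 CPM with ortho and 4994 CPM with WT IL-2, Cish 433.2 and 412 CPM, and Bcl2 1444 and 1489 CPM. For Il2ra the log2 difference was -0.04 with a 95% interval from -0.15 to 0.06, for Foxp3 0.08 with an interval from -0.19 to 0.35, and for Socs1 0.11 with an interval from -0.36 to 0.59. The interval lay within 1.5-fold in either direction for 9980 genes (93.3%) and for 463 of the 671 genes that ortho IL-2 changed by at least 2-fold (69%). Among the panel, Bcl6 had an interval that left out 0 before adjustment, -0.21 from -0.37 to -0.05, with 19.5, 20.5 and 23.1 CPM with ortho and 23.2, 24.9 and 25.2 CPM with WT IL-2. The number at an unadjusted p under 0.05 depended on WT IL-2 replicate 1: without it, 2616 genes passed, with 0 called and a smallest adjusted p of 0.173. These results bound the difference at these doses and do not show that the cytokines act alike.

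**Figure D5:**
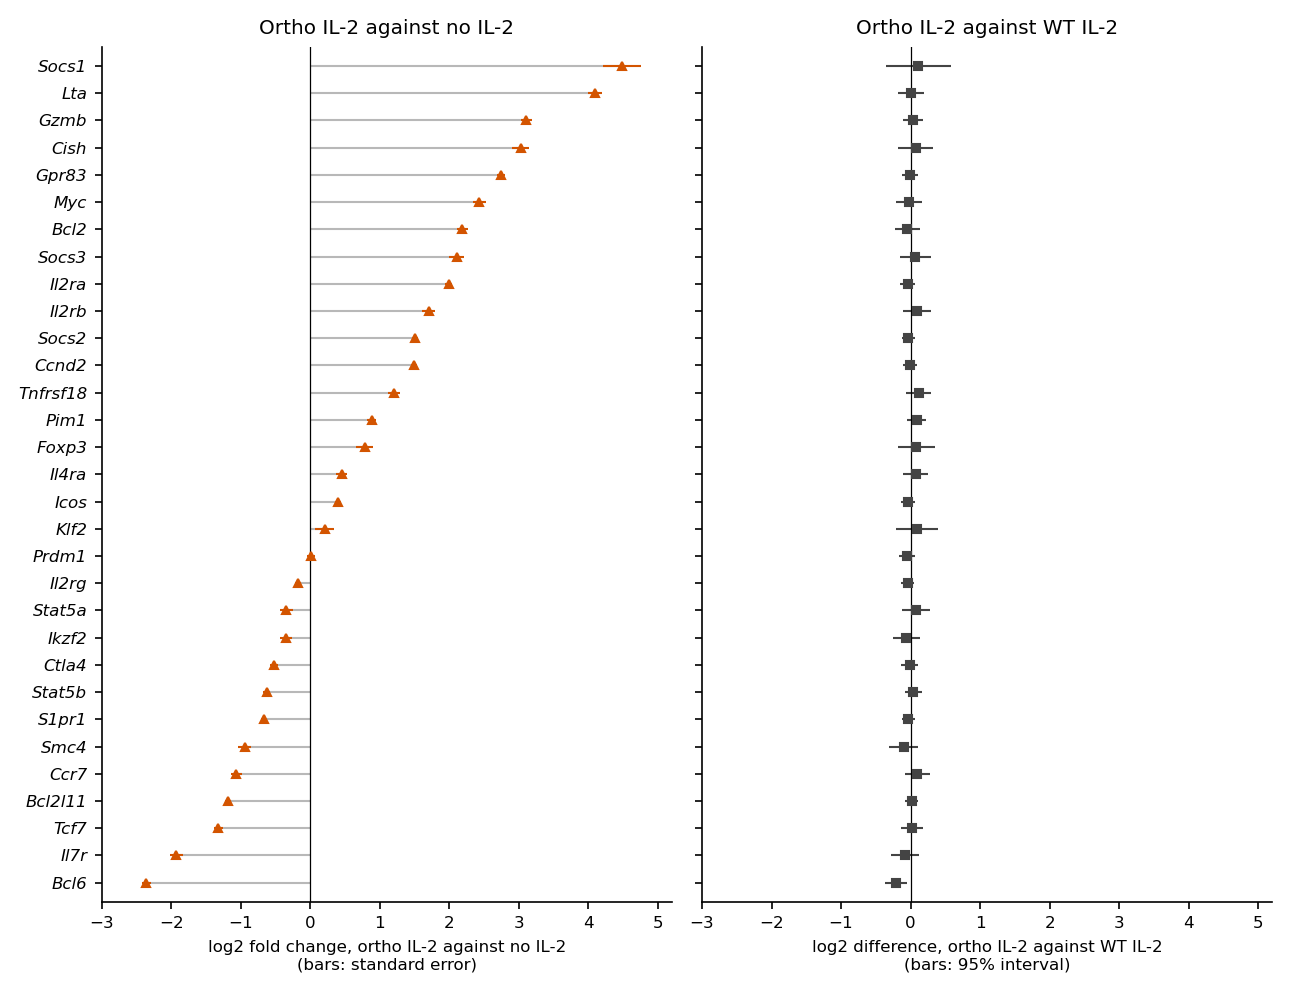
Left, log2 fold change of ortho IL-2 against no IL-2 for genes of the panel with standard errors. Right, log2 difference of ortho against WT IL-2 for the same genes with 95% intervals, on the same scale; the intervals cross 0 except that of Bcl6, which runs from -0.37 to -0.05 before adjustment.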

How the data were processed

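Messenger RNA of 9 mouse Treg samples was sequenced, 3 libraries per treatment, with groups and replicate numbers taken from the labels. The authors deposited, per the file headers, raw read counts and RPKM values per transcript with the transcript length in bases (another unit than expression). The tools named per the submitters' processing notes are TopHat2, Bowtie2, bedtools 2.25.0, SAMtools 0.1.8 and edgeR, with the mm10 build. Counter, annotation and strand setting: not given in the sources used here. For each symbol the transcript with the most summed reads was kept, and the 10702 genes that reached an RPKM of 1 in 3 or more of the 9 libraries were tested. Counts were fitted with edgeR 4.0.16 (quasi-likelihood test, TMM, group means over all 9 libraries, Benjamini-Hochberg adjustment over all genes tested, threshold 0.05) in R 4.3.3. Fold changes are those of the edgeR fit with its default prior count, and the fit was tested on simulated data. Alternatives used limma 3.58.1, DESeq2 1.42.0, other scalings and filters, GC offsets (10657 genes with a value), a replicate block, the reads outside genes as a covariate, and each library left out in turn.

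The members and the 75 gene lists (2213 symbols in the tables, 1905 tested) were chosen with earlier results of these data known. The rule named a panel, the 15 largest rises and falls among called genes whose libraries did not overlap with at least 5 CPM in the higher group (small RNA genes left out), the 8 largest gains and losses in CPM, and up to 3 genes per list. Every other gene named was chosen after its values were seen. Of the 254 genes named by the rule, 133 overlap another annotated gene, 66 of them on the same strand, and reads of such pairs may be shared. Replicate numbers were not used to pair the libraries in the main fit. Same-numbered no IL-2 and ortho IL-2 libraries deviated together with correlations of 0.44, -0.05 and 0.31, against -0.41 to 0.07 for differently numbered ones. Whether libraries of 1 number share an origin or handling was not tested, and a replicate block was run as an alternative. Depth limits low genes: 3 reads were taken as the floor.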

Additional observations from a re-analysis of the deposited data

How the results depend on the processing

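With the RPKM divisor as library size 5707 genes were higher and 946 lower (763 and 166 by at least 2-fold), and limma on unscaled RPKM gave 5606 and 919 with a pseudocount of 0.5 (114 lower by at least 2-fold) and 5605 and 914 with 0.1 (712 and 156). With reads outside genes as a covariate 925 were higher and 648 lower, 112 of them by at least 2-fold. Changes of at least 2-fold upward numbered 269 with quantile normalization. They were 671 up and 934 down with no filter on low values, against 231 and 114 with an RPKM of at least 5. The tilt of these changes was thus downward with no filter and upward in the main fit. Leaving out 1 library gave 2462 to 3387 higher and 2284 to 3247 lower genes, 150 to 316 falls of at least 2-fold, and a difference in reads outside genes of -12.9 to -9.23 percentage points. The lowest counts of 2-fold falls were 150 without no IL-2 replicate 1 and 152 without ortho IL-2 replicate 3. With the replicate block 2846 genes were higher and 2806 lower (403 and 277 by at least 2-fold), and with GC offsets and the block 3104 and 3113 (362 and 271). The comparison with WT IL-2 gave 0 calls under all 23 settings.

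Of 249 called genes named by the rule, 164 kept direction and call under every alternative and 213 under all but the covariate. Il2rg reversed to 0.11 under the RPKM divisor and 0.10 in both RPKM fits, and Klf2, not called under TMM, to -0.15 with GC offsets and -0.15 with offsets and the block. With the covariate C230091D08Rik reversed to 0.56, Ptk6 0.76, Tmem82 0.92, Tyms-ps 0.81, Slc18b1 0.76, 1010001N08Rik 0.85, 2810011L19Rik 0.89, Fbxo43 1.04, Efcab4a 1.14, Tyms 0.30, Psmb11 0.97, Mbd4 0.057, Zfp300 0.48, Zfp345 1.57 and Zfp941 0.92 on the log2 scale. The cause was not tested.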
